A study of Mus musculus with 24 samples.

Results

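Amino acids cross cell membranes through carrier proteins, and the genes described here are the members of the Slc1, Slc7, Slc36, Slc38 and Slc43 families of such carriers, measured in the liver and the hindleg muscle of newborn pups. A gene was a member when its probe set was annotated with a single symbol of these families, other than Slc7a5 and Slc7a11, and where a gene had several, the one brightest on average in that tissue stood for it. This gave 36 members of 18193 genes tested in each tissue. They were 7 Slc1 genes, 5 cationic Slc7 genes (Slc7a1 to Slc7a4 and Slc7a14), 8 further Slc7 genes of the branch whose proteins mostly pair with a heavy chain, 4 Slc36 genes, 9 Slc38 genes and 3 Slc43 genes. The rule reads names alone and no values, but it was drawn up with earlier results of these data known.

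All animals were C57BL/6 pups on day 0 after birth, and the groups are set by what the mother received between day 1 of pregnancy and birth. In the LPtau group the mothers were fed a low protein diet of 8% casein and drank water with 1% taurine, and in the LP group they had that diet alone. In the NPtau group they were fed a normal protein diet of 20% casein with the taurine water, and in the NP group that diet alone. Each diet has 3 Affymetrix arrays of total RNA per tissue, 24 in all, and this number limits the precision. The labels call the arrays biological replicates without naming dams or litters, so a p-value here covers only the scatter among these arrays, and pups of the same group may share a mother.

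The carriers differ in what they move and in what drives them. Slc1 proteins take up glutamate or small neutral amino acids with sodium, Slc38 proteins take up glutamine, alanine and other neutral amino acids with sodium, cationic Slc7 proteins carry arginine and lysine, Slc36 proteins move small amino acids such as proline and glycine and sit partly on lysosomes and endosomes, and among the Slc43 proteins Slc43a1 and Slc43a2 carry large neutral amino acids by facilitated diffusion, while Slc43a3 carries purine bases. In fetal and newborn liver such carriers supply nitrogen and carbon for protein synthesis and gluconeogenesis. Cells that lack amino acids are known to make more messenger RNA of some carriers, among them Slc38a2 and Slc7a1, through the transcription factor ATF4, and carriers on lysosomes report amino acids to the growth kinase complex mTORC1.

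Promoter sequence was taken for the members whose liver values the account turns on. RefSeq windows of assembly GRCm38.p6 were held for 26 of the 36 members (37 windows, from 250 bases before to 50 bases after the start). Not matched were Slc1a5, Slc36a2, Slc38a1, Slc38a3, Slc43a3, Slc7a2, Slc7a3, Slc7a4, Slc7a12 and Slc7a13. The members were searched for 3 motifs on both strands, the core of the amino acid response element bound by ATF4 (TGATGNAA), the E-box bound by MITF and TFEB, regulators of lysosomal genes (CACGTG), and the full cAMP response element (TGACGTCA). The last 2 were added with the members' values known. The first sequences are the 250 bases before the start of Slc36a4, at chr9:15709488-15709737 on the plus strand, and of Slc38a2, at chr15:96699729-96699978 on the minus strand. They are the called gene and the member with the next smallest p in LP liver, and are written in lower case because none of the 3 motifs matched there, which says only that these letters are not in these windows.
Slc36a4: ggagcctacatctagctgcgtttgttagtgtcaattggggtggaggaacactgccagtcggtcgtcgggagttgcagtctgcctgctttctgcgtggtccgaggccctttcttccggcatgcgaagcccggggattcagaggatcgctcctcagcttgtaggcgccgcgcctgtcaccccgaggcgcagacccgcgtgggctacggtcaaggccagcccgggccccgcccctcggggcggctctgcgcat
Slc38a2: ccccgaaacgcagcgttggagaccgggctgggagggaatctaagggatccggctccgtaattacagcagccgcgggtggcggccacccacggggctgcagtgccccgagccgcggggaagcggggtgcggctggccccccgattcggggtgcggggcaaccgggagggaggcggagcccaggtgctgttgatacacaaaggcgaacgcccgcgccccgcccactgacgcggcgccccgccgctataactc

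The TGATGNAA core matched in 2 of the 26 members (7.69%), Slc1a4 and Slc7a7, against 4.51% of 27025 genes with a window. CACGTG matched in 7 of the 26 members (26.9%), Slc1a6, Slc1a7, Slc36a1, Slc38a5, Slc38a7, Slc43a1 and Slc7a14, against 8.09% of all genes. TGACGTCA matched in Slc38a6 alone (3.85% of the members), against 2.03% of all genes. The short stretches printed next, with the match in capitals, are from Slc7a7, Slc1a7 and Slc38a7. Slc7a7 has matches in windows of alternative starts at chr14:54418058-54418105 and chr14:54417918-54417952 on the minus strand. Slc1a7 lies at chr4:107968326-107968371 (plus strand) and Slc38a7 at chr8:95853500-95853545 (minus strand). Both are shown because LP and NP livers did not overlap, with an unadjusted p under 0.05 (limma). Slc1a6 and Slc7a14 also had higher LP values without overlap, did not reach that p, and are not shown. A choice by values says nothing of a link between motif and level. A match is a description of the letters and not a measured binding site.
Slc7a7, first: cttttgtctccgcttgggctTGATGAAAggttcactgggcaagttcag
Slc7a7, second: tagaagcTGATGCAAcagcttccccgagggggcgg
Slc1a7: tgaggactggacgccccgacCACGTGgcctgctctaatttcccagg
Slc38a7: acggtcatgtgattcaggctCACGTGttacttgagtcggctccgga

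Values are log2 expression values, normalized by the authors in each tissue separately, so that no level is compared between tissues or between genes. The median over all genes was 6.41 in liver and 6.12 in muscle, and the members above it numbered 19 of 36 in liver and 16 of 36 in muscle. Alb and Afp, secreted proteins of fetal hepatocytes, lay at 14.85 to 15.01 and 14.54 to 14.74 in the liver samples, and the muscle genes Acta1 and Ckm lay at 14.20 to 14.91 and 13.28 to 14.22 in the muscle samples. The defining markers of both labelled tissues were thus present. The muscle samples also held adipocyte, cartilage and hepatocyte transcripts in unequal amounts: Adipoq ran from 6.02 to 13.34, Col2a1 from 7.29 to 13.12 and Alb from 5.46 to 9.75. The mean log2 value of 6 cartilage genes, less the NP mean, was 1.79 to 2.35 in LPtau and -0.78 to 3.31 in LP muscles. In NPtau and NP muscles it was -0.71 to 1.10 and -0.93 to 0.70. That of 8 skeletal muscle genes was -0.72 to -0.16 in LP muscles, below -0.06 to 0.03 in NP muscles. It was -0.48 to 0.02 in LPtau and -0.57 to 0.04 in NPtau muscles. The part of these transcripts in the muscle comparisons, and in the difference between tissues, was not tested. In each tissue the sex given by Xist and Eif2s3y was female in 1 LPtau, 2 LP, 2 NPtau and 1 NP arrays. The muscle array LPtau 1 stood farthest from its group, with a median absolute deviation of 0.27 log2 units, against 0.09 to 0.20 for the other 23 arrays.

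Low maternal protein was set against normal protein in liver first. Of the 36 members 1 changed: Slc36a4 fell in LP liver, and the background was 2.34% of all genes called at an adjusted p under 0.05 (1.23% called lower). Slc36a4 encodes a carrier of proline and tryptophan that was found in human cells on endosomes and the Golgi, where it is tied to mTORC1 activity. Its log2 values were 6.74, 6.00 and 6.49 in the 3 LP livers, against 7.73, 7.86 and 7.53 in the 3 NP livers. All LP livers lay below every liver of the other 3 diets, since the LPtau livers had 7.40, 7.39 and 7.60 and the NPtau livers 7.59, 7.44 and 7.29. The group means were 6.41 ± 0.38 in LP and 7.71 ± 0.17 in NP (SD, n = 3 each), a log2 difference of -1.29 (SE 0.18, adjusted p 0.0108, limma with Benjamini-Hochberg adjustment over 18193 genes). On the linear scale the LP level was 0.408 of the NP level. Slc36a4 has 1 probe set on the array. In whole tissue, fewer cells of a type and less RNA per cell cannot be told apart. Without NP replicate 1 the same difference was -1.28 with an adjusted p of 0.0534 (limma), and 0 members were called, with 6 at an unadjusted p under 0.05.

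Markers of other cells changed in these livers too, in both directions. Of 7 B cell progenitor genes 3 fell, Cd79b, Rag1 and Ebf1, while Pax5 had a positive difference of 0.28 (SE 0.11, adjusted p 0.168, limma), and the mean log2 value of the list, less the NP mean, lay between -1.34 and -0.88 in LP livers, against -0.10 to 0.08 in NP livers. Of 6 endothelial genes 3 fell, Pecam1, Cdh5 and Esam, while Kdr had a positive difference of 0.25 (SE 0.14, adjusted p 0.326, limma), and their list mean was -0.62 to -0.38 in LP livers, against -0.15 to 0.14 in NP livers. Of 6 macrophage genes 1 changed: Marco, a scavenger receptor, rose by 1.27 on the log2 scale (SE 0.23, adjusted p 0.0236, limma), and the list mean was -0.23 to 0.07 in LP livers, against -0.31 to 0.16 in NP livers. The list mean of 6 erythroid genes, 0 of them called, also overlapped, at -0.58 to 0.06 in LP livers and -0.22 to 0.17 in NP livers. All 8 granulocyte genes, all 6 cell cycle genes and 7 of 8 stellate and fibroblast genes had negative differences, against 41.5% of all genes. That share of all genes was 55.4% above the liver median and 27.6% at or below it. Of the granulocyte, cell cycle and stellate and fibroblast lists 0 genes passed the test. At an unadjusted p under 0.05 there were 6 of 8, 1 of 6 and 1 of 8 (75%, 16.7% and 12.5%, against 22.7% of all genes). The list means lay at -0.99 to -0.26, -0.59 to -0.51 and -0.55 to -0.14 in LP livers. In NP livers they lay at -0.19 to 0.28, -0.25 to 0.13 and -0.10 to 0.08, with no overlap. Of 4 adipocyte genes 1 fell, Fabp4, which vessel cells also express. The list mean of 7 hepatocyte genes lay between -0.01 and 0.02 in LP livers, against -0.14 to 0.14 in NP livers. The part of these cell types in the difference of Slc36a4 was not tested.

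**Figure D1:**
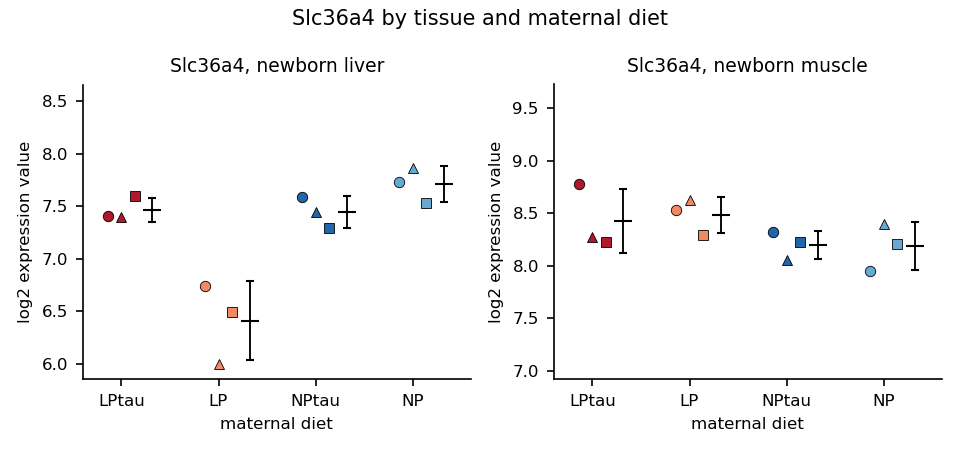
Log2 expression values of Slc36a4 (vertical axis) by maternal diet (horizontal axis) in newborn liver (left) and hindleg muscle (right), each panel on its own axis of equal span; circles, triangles and squares are arrays 1, 2 and 3, and bars give the mean and SD. The 3 LP livers, at 6.00 to 6.74, lie below all other livers, and in muscle the LP arrays, at 8.30 to 8.63, overlap the NP arrays.

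In LP liver the members split by their level. Of the 19 members above the tissue median, Slc36a4 among them, 16 had negative LP minus NP differences (median -0.29), while 55.4% of all genes above the median had them (median -0.05). Of the 17 members at or below it 14 had positive differences (median 0.10), as did 72.4% of all genes at or below it (median 0.11). At an unadjusted p under 0.05 there were 8 of the 36 members, which is 22.2% of them against 22.7% of all genes. Of the members 5 were lower and 3 higher, where 9.53% of all genes were lower and 13.1% higher. The LP and NP arrays did not overlap in 14 members (38.9%), against 29.2% of all genes.

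Among the sodium-coupled Slc38 carriers, Slc38a1 and Slc38a2 had the most negative differences in LP liver, and neither passed the test. Slc38a2, a carrier of alanine and other neutral amino acids that is known to respond to amino acid lack in cultured cells, had 9.34, 9.89 and 10.14 in LP livers and 10.41, 10.76 and 10.77 in NP livers. The groups did not overlap, and the log2 difference was -0.86 (SE 0.23, adjusted p 0.0757, limma). The NPtau livers, at 9.65, 10.12 and 10.42, reached down into the LP range, and the LPtau livers had 10.41, 10.14 and 10.07. Of the 3 probe sets of Slc38a2, 2 had a negative difference.

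Slc38a1, a glutamine carrier of many growing tissues, had 7.89, 6.86 and 6.43 in LP livers and 8.36, 8.46 and 7.91 in NP livers. The LPtau livers had 7.47, 7.64 and 8.24 and the NPtau livers 8.38, 7.63 and 8.02. LP replicate 1 lay close to NP replicate 3, while the other LP arrays were lower than all NP arrays by more than 1 log2 unit. The difference was -1.18 (SE 0.35, adjusted p 0.0914, limma), and the second probe set of the gene gave -0.31. Without LP replicate 1 it was -1.60 with an adjusted p of 0.0108 (limma). With any array left out it lay between -1.60 and -0.87, and under other processing between -1.22 and -0.74. Over all of these the adjusted p (limma) ran from 0.0108 to 0.27. LP replicate 1 was the LP array farthest from its group. Its median absolute deviation, over the brighter probe sets as above, was 0.18, against 0.12 and 0.13 for LP replicates 2 and 3.

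In the genome Slc38a1, Slc38a2 and Slc38a4 lie side by side on chromosome 15 with 0 protein coding genes between neighbours, by the RefSeq gene order. Slc38a4, an imprinted gene in mouse and the Slc38 member with the highest mean in liver, had 12.28, 11.51 and 11.61 in LP livers and 11.58, 12.03 and 11.87 in NP livers. These groups overlapped, and the difference was -0.03 (SE 0.21, adjusted p 0.953, limma). Its second probe set, also bright, gave -0.44, and the Slc38a2 probe set next in brightness gave -0.35. In LPtau livers Slc38a4 had 12.31, 12.10 and 11.77, and in NPtau livers 11.82, 11.46 and 11.59. The differences of the 3 neighbours were not tested against each other. Slc38a7, a glutamine and asparagine carrier found on lysosomes, had 7.53, 7.01 and 7.17 in LP livers and 6.93, 6.78 and 6.96 in NP livers, a difference of 0.35 (SE 0.15, adjusted p 0.197, limma). Its LPtau livers had 7.14, 7.11 and 7.13, and its NPtau livers, at 6.88, 7.33 and 7.02, overlapped the LP and the NP livers. Over the 9 Slc38 members 6 differences were negative, and the median was -0.03.

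The cationic carriers Slc7a1 and Slc7a2, which bring arginine, lysine and ornithine into cells, were lower in the LP livers without passing the test. Slc7a1, the widespread form, had 8.93, 8.40 and 8.21 in LP livers and 9.14, 9.24 and 9.67 in NP livers, with no overlap. The difference was -0.84 (SE 0.32, adjusted p 0.156, limma). The other probe sets of the gene gave -0.31 and, at a mean of only 4.56, -0.0024. The LPtau livers, at 8.50, 8.72 and 9.64, and the NPtau livers, at 8.94, 8.68 and 9.54, reached into both ranges. Slc7a2, the liver form and the cationic member with the highest mean there, had 10.21, 11.03 and 11.27 in LP livers and 11.79, 11.23 and 11.71 in NP livers. The lowest NP value fell inside the LP range, and the difference was -0.74 (SE 0.29, adjusted p 0.173, limma), negative in 4 of 4 probe sets. It had 11.37, 11.19 and 11.46 in LPtau livers and 10.80, 10.49 and 11.48 in NPtau livers. The other 3 cationic genes had differences of -0.00 to 0.09.

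The heavy-chain-linked Slc7 members had small differences. All 8 lay between -0.30 and 0.19, 4 positive and 4 negative, and 0 of 8 had an unadjusted p under 0.05. Only Slc7a7 had a mean above the liver median of 6.41, and the others ran down to 3.68, for Slc7a12. Dim signal limits what their differences can show. Slc7a7, which releases arginine and lysine from cells in exchange for neutral amino acids and had the highest mean of this group in liver, had 6.53, 6.06 and 6.03 in LP livers and 6.39, 6.37 and 6.72 in NP livers, a difference of -0.29 (SE 0.15, adjusted p 0.28, limma). The groups overlapped, through LP replicate 1, and the LPtau livers, at 6.51, 6.53 and 6.70, and the NPtau livers, at 6.56, 6.78 and 6.70, held no value as low as those of LP replicates 2 and 3. The 2 heavy chains themselves are no members. Slc3a2, the partner of most of these proteins, had an LP minus NP difference of -0.15 (SE 0.16), and Slc3a1, the partner of the cystine carrier Slc7a9, averaged 8.28 in LP and 9.40 in NP livers. The difference of Slc3a1 was -1.12 (SE 0.32, adjusted p 0.0857, limma), that of its partner Slc7a9 0.15 (SE 0.13). Slc7a9 averaged only 4.54 over all livers. The excluded Slc7a5 and Slc7a11 had differences of 0.08 and -0.00 in liver. In muscle their LP minus NP differences were 0.70 and -0.06, and the LP and NP arrays of Slc7a5 overlapped there.

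The glutamate carriers of the Slc1 family are mostly known from brain and retina, and 5 of the 7 Slc1 members were at or below the liver median. All 5 had positive LP minus NP differences, 0.08 to 0.37, in a range of levels where positive differences were common. Slc1a3 had 5.39, 5.57 and 5.23 in LP livers and 5.18, 4.87 and 5.04 in NP livers, which did not overlap. The difference was 0.37 (SE 0.12, adjusted p 0.122, limma) with the same sign in 6 of 6 probe sets. The LPtau livers, at 5.05, 5.33 and 5.23, and the NPtau livers, at 5.25, 5.38 and 5.21, lay between or within these groups. Slc1a7 had 5.72, 5.91 and 6.14 in LP livers and 5.70, 5.53 and 5.47 in NP livers. The groups met closely without overlapping, and the difference was 0.36 (SE 0.12, adjusted p 0.129, limma). Without LP replicate 1 it was 0.46 with an adjusted p of 0.0396 (limma). With any array left out it lay between 0.25 and 0.46, and under other processing between 0.32 and 0.40. Over all of these the adjusted p (limma) ran from 0.0396 to 0.356. Its LPtau livers had 5.67, 5.68 and 5.70, and its NPtau livers 5.90, 5.68 and 5.67.

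The neutral amino acid carrier Slc1a5, a main route of glutamine into growing cells, had the highest mean of the Slc1 family in liver and varied within every diet. It had 7.79, 8.33 and 8.57 in LP livers and 8.67, 8.50 and 8.79 in NP livers, a difference of -0.43 (SE 0.45, adjusted p 0.59, limma). It had 8.15, 7.99 and 8.91 in LPtau livers and 8.89, 7.09 and 9.07 in NPtau livers, so that NPtau replicates 2 and 3 lay farther apart than the means of any 2 diets. The same arrays were low and high in the erythroid marker list of 6 genes, newborn liver being still a site of blood formation. That list, less its NP mean, was -0.23, -0.54 and 0.06 in LPtau, -0.58, -0.15 and 0.06 in LP, 0.07, -0.59 and 0.30 in NPtau, and 0.05, -0.22 and 0.17 in NP livers. In all 4 diets the lowest and the highest array of Slc1a5 and of Slc43a3 were the lowest and the highest of the erythroid list. This held for 0.456% of all genes. Every marker list was compared in this way. The erythroid and the cell cycle list each shared the lowest array in all 4 diets with Slc1a5, Slc38a5, Slc43a3 and Slc7a2. For either list this held for 3.42% of all genes. These matches were read from the values after they had been seen, and the part of erythroid or dividing cells was not tested.

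**Figure D2:**
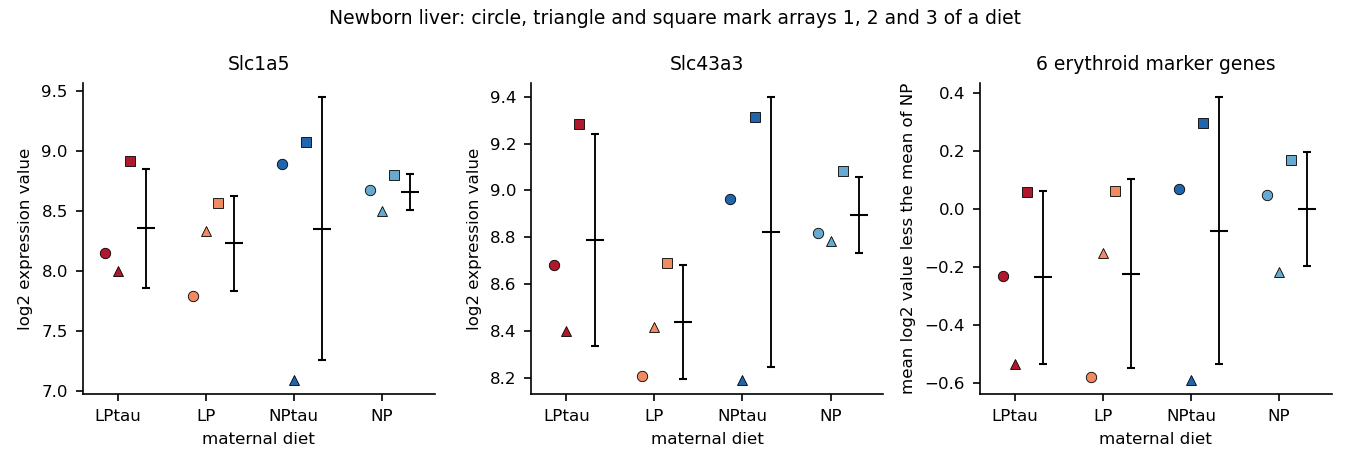
Log2 expression values of Slc1a5 and Slc43a3, and the mean log2 value of 6 erythroid marker genes less its NP mean (vertical axes), by maternal diet in newborn liver; circles, triangles and squares are arrays 1, 2 and 3 of a diet, and bars give the mean and SD. NPtau replicate 2 is lowest in its diet in all 3 panels, at 7.09 for Slc1a5, and replicate 3 is highest in every diet.

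The 3 Slc43 members all had negative differences in LP liver, from -0.61 to -0.15, and 0 of 3 passed. Slc43a1, a carrier of leucine and other large neutral amino acids with the highest mean of the family, had 8.87, 9.16 and 9.97 in LP livers and 9.33, 9.49 and 9.64 in NP livers. The LP values enclosed the NP values, and the difference was -0.15 (SE 0.29, adjusted p 0.778, limma). The LPtau livers had 9.45, 9.08 and 9.58, and the NPtau livers 9.54, 8.84 and 9.70. Within Slc36, the other 3 members had positive differences of 0.10 to 0.42. Slc36a2, a proton-coupled carrier of glycine and proline known in mouse from kidney and brown fat, had 7.54, 9.01 and 9.38 in LP livers and 8.39, 7.58 and 8.71 in NP livers, a difference of 0.42 (SE 0.53, adjusted p 0.664, limma). Its NPtau livers had 8.00, 9.26 and 7.40.

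**Figure D3:**
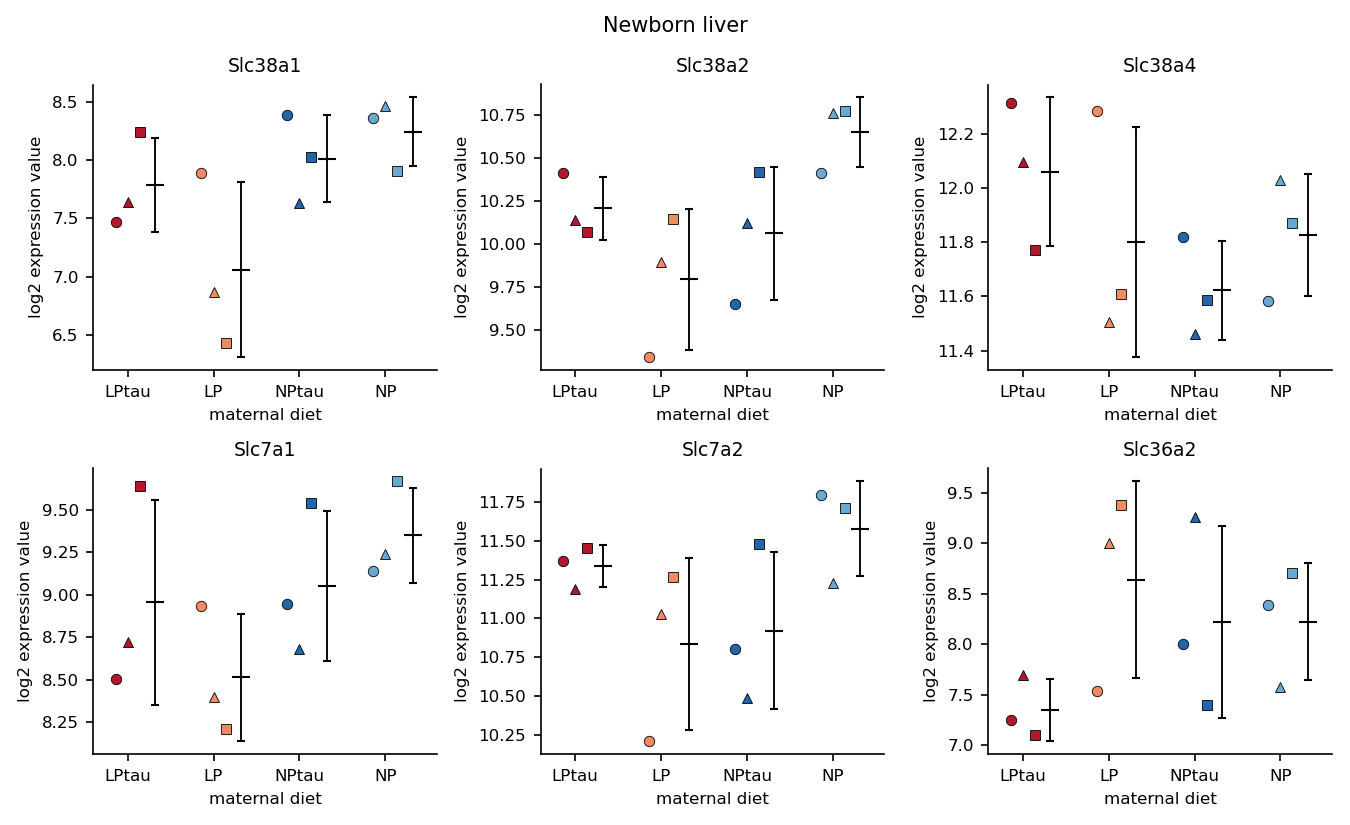
Log2 expression values (vertical axes) of 6 members by maternal diet (horizontal axes) in newborn liver; circles, triangles and squares are arrays 1, 2 and 3 of a diet, and bars give the mean and SD. Slc38a1, Slc38a2 and Slc7a1 show no overlap of LP with NP, while Slc38a4 overlaps over all diets.

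Genes that work beside the carriers were set against them. Of 27 listed transport partners (heavy chains, other plasma membrane carriers and mitochondrial or lysosomal carriers) 24 were measured, 0 were called in LP liver by limma, and 7 had an unadjusted p under 0.05 (29.2%, against 22.7% of all genes). Of their differences 14 were positive (58.3%, against 58.5% of all genes), the highest that of the taurine carrier Slc6a6 at 0.68 (SE 0.30, adjusted p 0.208, limma). Of 22 listed genes of amino acid sensing 21 were measured and 15 had negative differences (71.4%, against 41.5% of all genes). That share of all genes was 55.4% above the liver median and 27.6% at or below it. At an unadjusted p under 0.05 there were 4 of the 21 sensing genes (19.0%, against 22.7% of all genes). All 4 were lower, where 9.53% of all genes were lower. Fnip1, a partner of folliculin in the signal that lysosomal amino acids send to mTORC1, fell by 0.87 on the log2 scale in LP liver (SE 0.15, adjusted p 0.023, limma). Atf4 itself averaged 10.86 in LP and 11.08 in NP livers (difference -0.23, SE 0.22, adjusted p 0.553, limma).

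Taurine given with the low protein diet was set against that diet alone. In liver 0 of the 36 members were called for LPtau minus LP by limma, where the background was 0.066% of all genes, and 4 members had an unadjusted p under 0.05, 11.1% against 8.48% of all genes. Slc36a4 had 7.40, 7.39 and 7.60 in LPtau livers and 6.74, 6.00 and 6.49 in LP livers. The groups did not overlap, and the difference was 1.05 (SE 0.18, adjusted p 0.0721, limma). Without LP replicate 1 it was 1.22 with an adjusted p of 0.0182 (limma), and 1 member was then called. With any array left out it lay between 0.85 and 1.22, and under other processing between 0.98 and 1.13. Over all of these the adjusted p (limma) ran from 0.0182 to 0.295. The comparison shares its LP arrays with LP minus NP, so a low LP value enters both. Marker lists moved with it in part. The list mean of 7 B cell progenitor genes was -0.79 to 0.05 in LPtau livers, against -1.34 to -0.88 in LP livers. The endothelial list mean was -0.13 to 0.18 in LPtau livers, against -0.62 to -0.38 in LP livers, and that of stellate cells and fibroblasts was 0.02 to 0.72 in LPtau livers, against -0.55 to -0.14 in LP livers. Of the endothelial genes and of the stellate and fibroblast genes, 5 of 6 and 8 of 8 had positive differences. Limma called 0 of them, with 3 and 5 at an unadjusted p under 0.05. The granulocyte, macrophage, erythroid, cell cycle and hepatocyte list means overlapped between LPtau and LP livers. The part of these cell types was not tested.

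Against the NP livers the LPtau livers were close for Slc36a4, with means of 7.46 ± 0.12 and 7.71 ± 0.17 (SD, n = 3 each) and a difference of -0.24 (SE 0.18). The interaction, LPtau minus NPtau less LP minus NP, was 1.32 (SE 0.25, adjusted p 0.266, limma) and was not called. For interaction in liver 0 of 36 members were called, as were 0% of all genes, and 6 members had an unadjusted p under 0.05, against 8.46% of all genes.

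Of the 19 members above the liver median 15 had positive LPtau minus LP differences (median 0.26), and 62.2% of all genes above the median had them (median 0.07). The groups overlapped in nearly all members: 2 of 36 (5.56%) did not, against 13.8% of all genes. Slc36a2 had a negative difference, with 7.25, 7.69 and 7.11 in LPtau livers and 7.54, 9.01 and 9.38 in LP livers, at -1.29 (SE 0.53, adjusted p 0.542, limma). For Slc38a1 and Slc38a2 the differences were 0.72 (SE 0.35) and 0.41 (SE 0.23), and for Slc7a1 and Slc7a2 0.44 (SE 0.32) and 0.50 (SE 0.29). The heavy chain Slc3a1 averaged 9.73 in LPtau and 8.28 in LP livers, a difference of 1.45 (SE 0.32, adjusted p 0.172, limma).

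The remaining comparisons in liver gave no call. For NPtau minus NP limma called 0 of 36 members and 0% of all genes, with 2 members at an unadjusted p under 0.05 (2.75% of all genes). For LPtau minus NP it called 0 members, with 2 at that p (6.77% of all genes), and for LPtau minus NPtau 0 members, with 1 at that p (4.74% of all genes). Under taurine on the normal diet the largest differences in size were those of Slc7a2, at -0.66 (SE 0.29), and Slc38a2, at -0.59 (SE 0.23). Both had an adjusted p of 0.995 (limma).

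**Figure D4:**
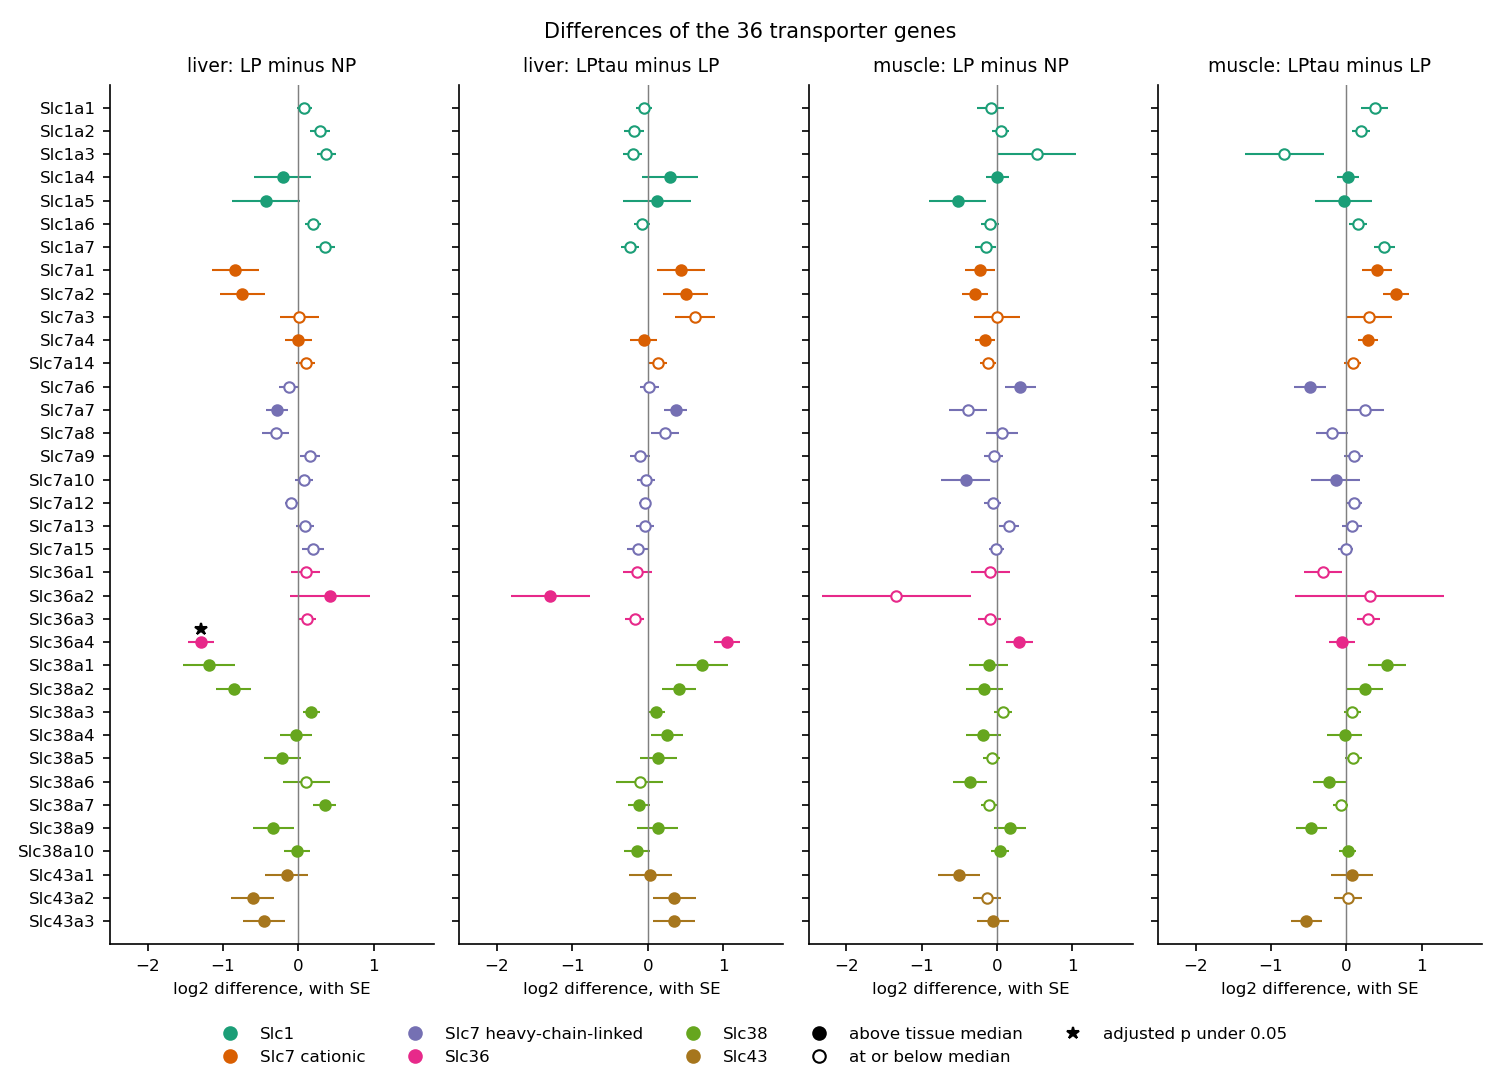
Log2 differences with their SE (horizontal axes) of the 36 members, one per line and coloured by family, for LP minus NP and LPtau minus LP in liver and in muscle; filled points lie above the median level of the tissue and the star marks an adjusted p under 0.05. Only Slc36a4 in LP liver, at -1.29, carries the star.

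In hindleg muscle 0 of 36 members were called in any of the 6 comparisons. For LP minus NP limma called 0.126% of all genes, and 0 members had an unadjusted p under 0.05, against 10.8% of all genes. Of the 36 differences 25 were negative (median -0.09), and 52.4% of all genes had negative differences. The LP and NP arrays did not overlap in 7 members (19.4%), against 19.6% of all genes. All 7 were lower in LP, as were 11.6% of all genes. Slc36a4, the Slc36 gene with the highest mean in muscle, had 8.53, 8.63 and 8.30 in LP muscles and 7.95, 8.40 and 8.21 in NP muscles, a difference of 0.30 (SE 0.17, adjusted p 0.619, limma). It had 8.78, 8.27 and 8.23 in LPtau muscles and 8.32, 8.05 and 8.23 in NPtau muscles.

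The low protein difference of Slc36a4 was then compared between the tissues. In a limma fit of all 24 arrays, LP minus NP in liver less LP minus NP in muscle was -1.59 (SE 0.25, adjusted p 0.00337), from -1.29 in liver and 0.30 in muscle. It was the 1 member called among 36, where the background was 1.97% of all genes, and 5 members had an unadjusted p under 0.05, against 17.1% of all genes. Without liver LP replicate 1 there were 2, Slc36a4 and Slc38a1.

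Taurine under low protein gave 0 called members in muscle too, against 0.022% of all genes, with 5 members at an unadjusted p under 0.05, 13.9% against 12.9% of all genes. The arrays did not overlap in 6 members (16.7%), against 16.1% of all genes. Slc7a2 had 8.83, 8.76 and 8.43 in LPtau muscles and 7.72, 8.25 and 8.09 in LP muscles. The groups did not overlap and the difference was 0.65 (SE 0.17, adjusted p 0.174, limma), positive in 4 of 4 probe sets. The LPtau values were also near those of NPtau muscles, at 8.57, 8.66 and 8.20, while the NP muscles had 8.30, 8.30 and 8.35. All 5 cationic Slc7 members had positive LPtau minus LP differences in muscle, 0.08 to 0.65, and 53.0% of all genes had positive ones. Slc7a3 and Slc7a14 lay below the muscle median, where 68.4% of all genes had positive ones. Slc7a3 had 5.58 in LPtau replicate 2, against 4.23 and 4.36 in the other LPtau muscles.

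Slc1a7, a glutamate carrier known from retina, had 5.77, 5.39 and 5.35 in LPtau muscles and 5.16, 4.83 and 5.004 in LP muscles, a difference of 0.50 (SE 0.14, adjusted p 0.198, limma) without overlap. The NPtau muscles had 5.23, 5.17 and 5.20 and the NP muscles 5.30, 5.01 and 5.14, and all these values lie below the muscle median. Slc43a3, with the highest mean of its family in muscle, had 7.52, 6.96 and 7.65 in LPtau muscles and 8.15, 7.74 and 7.83 in LP muscles, a difference of -0.53 (SE 0.21, adjusted p 0.332, limma). It had 8.27, 7.89 and 8.34 in NPtau muscles and 8.10, 8.13 and 7.65 in NP muscles. Endothelial markers were uneven in the same samples, with a list mean, less that of NP, of -1.09, -0.44 and -0.09 in LPtau and -0.60, -0.66 and -0.28 in LP muscles. Their lowest LPtau array was replicate 1, that of Slc43a3 replicate 2. The list mean of 6 macrophage genes was -0.18, -0.33 and -0.11 in LPtau and 0.17, -0.26 and -0.12 in LP muscles. Its lowest array was also that of Slc43a3 in all 4 diets, as for 0.874% of all genes. The highest array was not shared in every diet. This match was read after the values had been seen, and the part of these cells was not tested.

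Slc36a2 varied widely between muscle samples of the same diet, as did adipocyte transcripts. Slc36a2 had 5.46, 4.38 and 6.91 in LPtau, 5.32, 5.68 and 4.82 in LP, 4.43, 6.60 and 9.09 in NPtau, and 5.89, 7.53 and 6.41 in NP muscles, a range of more than 4 log2 units inside the NPtau group. The list mean of 4 adipocyte genes was -2.37, -2.14 and 0.11 in LPtau, -0.52, -1.19 and -1.39 in LP, -2.04, -0.32 and 1.45 in NPtau, and -0.35, 0.50 and -0.14 in NP muscles. NPtau replicate 3, NP replicate 2 and LPtau replicate 3 were the highest arrays of their diets in both. In LP muscles the highest array was replicate 2 for Slc36a2 and replicate 1 for the list, so the highest array was shared in 3 of the 4 diets. Slc1a3 and Slc1a5 had their lowest and highest array in all 4 diets in common with the adipocyte list, as did 0.187% of all genes. Slc1a5, the Slc1 member with the highest mean in muscle, had 6.83, 7.30 and 7.86 in LPtau, 7.63, 7.39 and 7.07 in LP, 7.50, 7.54 and 8.94 in NPtau, and 7.64, 8.23 and 7.79 in NP muscles. Slc36a1 had such a match with the stellate and fibroblast list, as did 0.33% of all genes. The arrays were matched to every marker list after the values had been seen, and the part of fat cells was not tested.

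**Figure D5:**
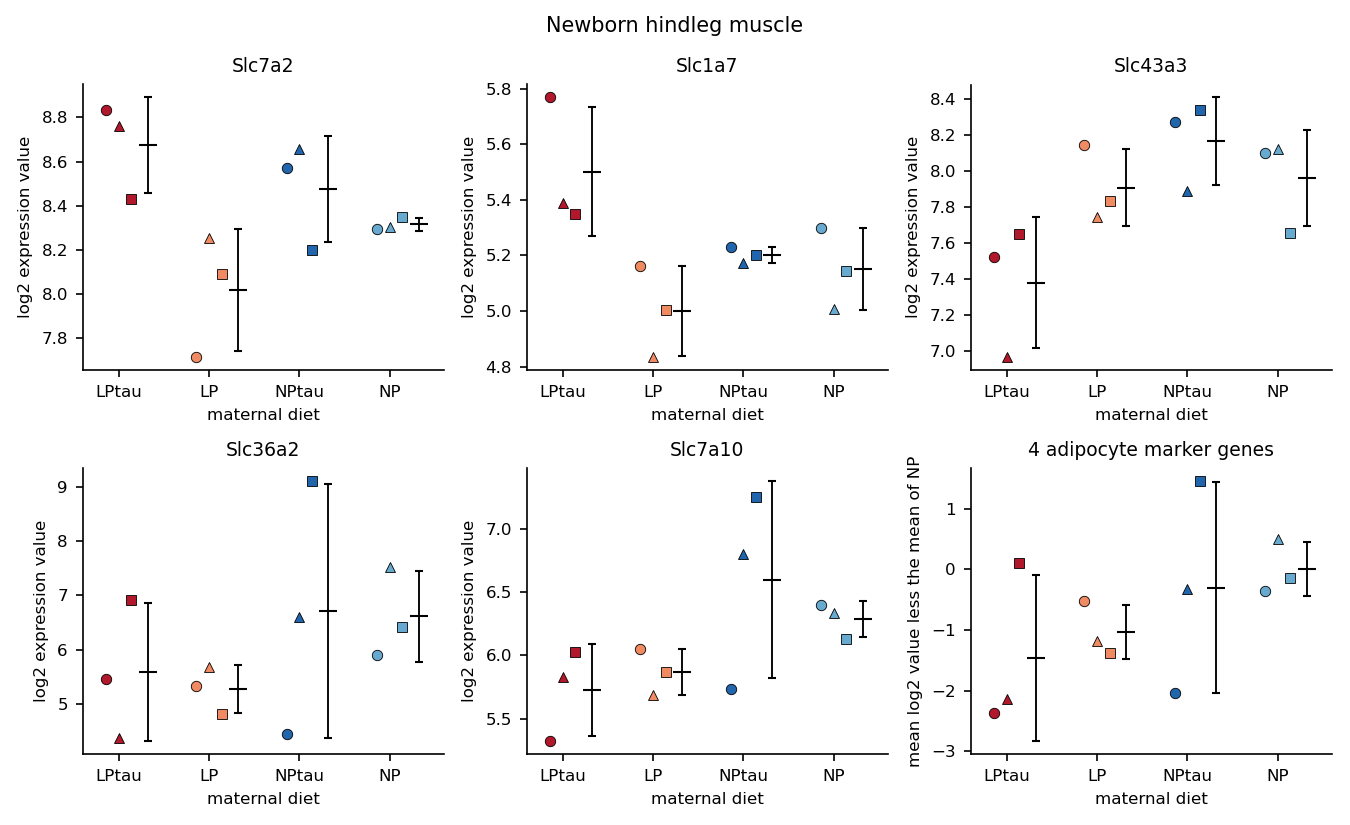
Log2 expression values of 5 members, and the mean log2 value of 4 adipocyte marker genes less its NP mean (vertical axes), by maternal diet in newborn hindleg muscle; circles, triangles and squares are arrays 1, 2 and 3 of a diet, and bars give the mean and SD. Slc7a2 is higher in all LPtau than in all LP muscles, and Slc36a2 reaches its highest value, 9.09, in the NPtau array with the highest adipocyte value.

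The muscle members with the highest mean of the other families did not pass the test either. Slc38a2 had 11.36, 10.83 and 10.95 in LPtau muscles, 11.33, 10.69 and 10.38 in LP muscles, 10.96, 10.32 and 10.84 in NPtau muscles and 11.03, 10.89 and 11.00 in NP muscles, with an LP minus NP difference of -0.17 (SE 0.24, adjusted p 0.892, limma). Slc7a1 had 9.60, 9.28 and 9.84 in LPtau muscles and 9.12, 9.24 and 9.13 in LP muscles, a difference of 0.41 (SE 0.20, adjusted p 0.407, limma). All 3 LPtau values lay above the LP values, the lowest of them narrowly. The NPtau muscles, at 9.03, 9.56 and 9.47, and the NP muscles, at 9.58, 9.03 and 9.56, spanned the LP values. Slc7a6, an exchanger of arginine for neutral amino acids, had 5.89, 6.37 and 6.06 in LPtau muscles and 6.87, 6.63 and 6.27 in LP muscles, a difference of -0.48 (SE 0.21, adjusted p 0.367, limma). It had 6.23, 6.32 and 6.58 in NPtau muscles and 6.03, 6.66 and 6.15 in NP muscles.

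In the other comparisons of muscle limma called 0 of 36 members, as it called 0% of all genes. At an unadjusted p under 0.05 there were 0 members for NPtau minus NP (0.484% of all genes), 3 for LPtau minus NP (3.75%), 6 for LPtau minus NPtau (5.45%) and 4 for the interaction (6.56%). Of the transport partners 0 of 24, and of the sensing genes 0 of 21, were called for LP minus NP in muscle, where 14 and 8 differences were positive (58.3% and 38.1%, against 47.6% of all genes).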

How the data were processed

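Total RNA of 24 samples was read on Affymetrix mouse arrays of 45101 probe sets. The deposited values are log2 expression values, for which RMA and R 2.7.0 are given per the submitters' processing notes, and MAS5 is named there with no role. Liver and muscle were normalized separately, per the labels. The values ran from 2.75 to 15.0 and were used with no further normalization and no filter on low values. No 2 arrays held identical values.

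In the annotation of the array, 34945 probe sets had 1 gene symbol, 932 several and 9160 none, and 64 were controls. Gene identifiers of 34741 were found in a RefSeq table of GRCm38.p6, which changed 0 symbols. Of 18193 genes 9010 had more than 1 probe set, and the one brightest on average stood for the gene, over the 12 arrays of a tissue or, in the fit of both tissues, over 24.

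The 12 arrays of a tissue entered a fit of 4 diet means with lmFit, contrasts.fit and eBayes of limma 3.58.1 (R 4.3.3), which pools the spread over diets. Each of 6 contrasts was adjusted by Benjamini-Hochberg over all genes, and a gene was called at an adjusted p under 0.05. With 3 against 3 arrays an exact two-sided test of 1 gene cannot go below 0.1. On simulated data for LP minus NP in liver, with 18193 genes, the fit recovered 90 of 100 genes changed by 1 log2 unit and 99 of 100 changed by 2, with 13 false calls. These counts describe the simulated spread and not that of each member. Slc38a1, at -1.18 in LP against NP liver, was not called, so a missing call sets no bound on a difference.

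The members, lists, tests and alternatives were chosen with earlier results of these data known. The text gives all arrays for members called in any contrast, for up to 10 per contrast with an unadjusted p under 0.05 and groups that do not overlap in LP minus NP or LPtau minus LP, and for the member of each family with the highest mean in a tissue. Slc7a3, and the match of arrays to marker lists, were singled out after the values were seen. The alternatives were each array left out, quantile or cyclic loess normalization again, the mean over all probe sets, genes above the median only, an intensity trend, only the groups compared, the sex of the pups and a replicate block. Replicate numbers were checked as pairs. Deviations of same-numbered arrays correlated at -0.31 to 0.40 between diets in liver and -0.31 to 0.26 in muscle. Arrays of different numbers were not compared in this way, so the check does not decide whether the numbers pair arrays of different diets. Liver and muscle arrays of the same diet and number gave the same sex in 12 of 12 pairs and correlated at -0.05 to 0.22, over 0.1 in 9 of 12.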

Additional observations from a re-analysis of the deposited data

Results flagged for a closer look

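The difference of Slc36a4 between the tissues stood out, since the effect of low maternal protein differed by a test of the difference itself. LP minus NP in liver less LP minus NP in muscle was -1.59 on the log2 scale (limma on 24 arrays, adjusted p 0.00337), and Slc36a4 was lower in 3 of 3 LP livers than in all NP livers. With 3 arrays to a group, no outlier test was run within groups.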

How the results depend on the processing

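The number of members called by limma for LP minus NP in liver was 1 and ranged from 0 to 3 when an array was left out, with 0 without NP replicate 1 and 3 (Slc36a4, Slc38a1 and Slc1a7) without LP replicate 1. For LPtau minus LP in liver it was 0, and 0 to 1 with an array left out. For the difference between the tissues it was 1, and 1 to 2. The other 10 counts of called members, 4 in liver and 6 in muscle, were 0 under every alternative run. Slc36a4 in LP against NP liver lay between -1.46 and -1.09 with an array left out and between -1.38 and -1.20 under the other alternatives, and its adjusted p (limma) ran from 0.0029 to 0.0534. Its LPtau minus NPtau difference, 0.02, which was never called, changed sign to -0.025 after quantile normalization, -0.0087 after cyclic loess, -0.042 without LPtau replicate 3 and -0.053 without NPtau replicate 3, and ran from -0.053 to 0.099 with an array left out. The cause was not tested. With a replicate block, which changed no call, Slc36a4 in LP against NP liver was -1.29 with an adjusted p of 0.0179 (limma), and 1 member was called. Diet and number shared by both tissues as a block gave -1.59 for the difference between the tissues, with an adjusted p of 0.0192 (limma). Restricting the fit to genes above the median gives no value for members at or below it, and a fit of only the groups compared gives none for the interaction. The number of arrays and, for members near the floor of the scale, dim signal limit what can be seen.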

Other observations

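Slc7a3, a cationic carrier known mostly from brain, was singled out after its values had been seen. It had 5.74, 6.07 and 4.81 in LPtau livers, 4.60, 4.99 and 5.14 in LP livers, 4.94, 5.08 and 4.74 in NPtau livers and 4.91, 4.93 and 4.86 in NP livers. Of the LPtau livers 2 of 3 lay above all other livers and the third lay among them. In muscle LPtau replicate 2 had 5.58, and the other LPtau arrays had 4.23 and 4.36, against 4.42, 4.21 and 4.65 in LP muscles. The array with the higher value thus carried number 2 of LPtau in both tissues. The difference LPtau minus LP was 0.63 (SE 0.26, adjusted p 0.556, limma) in liver and 0.30 (SE 0.30, adjusted p 0.677, limma) in muscle.

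Slc43a3 in muscle was lower in the 3 LPtau arrays than in every LP and NPtau array. For LPtau minus NPtau its values were 7.52, 6.96 and 7.65 in LPtau and 8.27, 7.89 and 8.34 in NPtau muscles, a difference of -0.79 (SE 0.21, adjusted p 0.737, limma). LPtau replicate 3 and NP replicate 3 met at 7.65.

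Slc36a1, Slc36a2 and Slc36a3 lie in a row on chromosome 11 with 0 protein coding genes between neighbours, and their LP minus NP differences in liver were 0.10, 0.42 (SE 0.53) and 0.11, none of them called and none tested against another. Slc36a4 lies apart from them, on chromosome 9.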
